A study of Mus musculus with 104 samples.

Results

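Dense-core vesicles are the secretory organelles in which neurons store neuropeptides and other proteins, and 10 genes that encode their characteristic proteins are described here across single neurons of the mouse substantia nigra. They were chosen by gene name: the granins Chga, Chgb, Scg2 and Scg3, the convertase chaperone Scg5, the convertases Pcsk1 and Pcsk2, the carboxypeptidase Cpe, and the vesicle membrane proteins Ptprn and Ptprn2. All 10 were among the 45808 genes of the deposited count table. Granins condense with peptide precursors in the trans-Golgi network and help the vesicle to bud. Convertases then cut the precursors at pairs of basic residues, carboxypeptidase E trims the exposed ends, and the vesicle releases its content when calcium enters the neuron. In midbrain dopaminergic neurons such vesicles carry peptides and neurotrophic factors beside the dopamine held in synaptic and other vesicles.

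Patch pipettes had drawn the content of single neurons from acute slices of the substantia nigra pars compacta for full-length cDNA synthesis, in a study of fluorescent reporters for Lewy pathology, that is, for the protein inclusions found in Parkinson disease. Its design text speaks of picking neurons with inclusions of a tagged α-synuclein, α-Syn-6H-EGFP. Sample titles name 38 libraries experiment and 66 control, all labelled dopaminergic neuron. What set the control neurons apart is not given in the labels, and neither are strain, genotype, age, sex, time, the source of the reporter or the animal of any library. With no animal to tie a library to, each group stands for a single sample, so groups were not tested against each other and every interval below is one of counting error alone.

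Depth ran from 116567 to 3094036 gene counts per library in the experiment group, around a median of 960027, and from 153770 to 2577694 in the control group, around 1039850. The median library showed 7354 genes with at least a single count among experiment libraries, against 8548 among control libraries. By their titles the libraries were also divided into 2 sets (21 experiment with 31 control libraries, and 17 with 35). A further division into 4 runs of ascending title numbers was chosen after the data were seen. No label names these as batches, and ratios within them stand beside the results. The 4 dopaminergic markers Th, Slc6a3, Slc18a2 and Ddc summed to a median of 15394 CPM (a gene's counts scaled by all gene counts of the library; range 550 to 22715) in experiment libraries and 20379 CPM (1857 to 33736) in control libraries. Genes are called expressed where all libraries together gave a CPM of 10 or more and 25% or more of either group's libraries had a count. Of 11 astrocyte markers, 10 were expressed and all 10 were higher in the experiment group, with a summed median of 667 CPM (23.3 to 10819) in experiment libraries and 438 CPM (109 to 2800) in control libraries. All 4 expressed GABAergic markers were also higher, with a summed median of 140 CPM (0 to 1750) against 51.1 CPM (0 to 1038) in control libraries. Of the oligodendrocyte markers 5 of 6 expressed were higher, with a summed median of 852 CPM (0 to 9925) in experiment libraries and 536 CPM (38.7 to 9709) in control libraries, but their median log2 ratio was 0.71 in title set 1 and -1.91 in set 2. Of the microglia markers 5 of 6 expressed were higher, with 156 CPM (0 to 3387) in experiment libraries and 131 CPM (0 to 2983) in control libraries. None of the endothelial markers was expressed, and Cldn5 had no count in any library. The experiment library numbered 27 had the lowest dopaminergic sum (550 CPM) and the highest astrocyte sum (10819 CPM) of all, and results that rest on it are also given without it. It was not the only such library. Dopaminergic and astrocyte sums were 3085 and 7631 CPM in experiment library 52, and 2637 and 3129 CPM in experiment library 49. In control library 5 they were 1857 and 1248 CPM.

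The DNA in front of the gene is printed for the 3 members that hold a whole motif palindrome there and for Ptprn, whose level differed most. Each window runs from 250 bases before to 50 bases after the annotated start, on the strand of the gene, from RefSeq on GRCm38.p6. Capitals mark TGACGTCA, the palindrome of the cAMP response element, or the 5-base TGACG on either strand where the whole palindrome is absent or in addition to it. The palindrome lay in the windows of Scg2, Chgb and Pcsk1, beginning 68, 72 and 78 bases before the start. The windows printed are Scg2 (chr1:79439977-79440276, minus strand), Chgb (chr2:132781392-132781691, plus strand), Pcsk1 (chr13:75089607-75089906, plus strand) and the upstream window of Ptprn (chr1:75264159-75264458, minus strand), where the short motif began at -117 and -80.
Scg2: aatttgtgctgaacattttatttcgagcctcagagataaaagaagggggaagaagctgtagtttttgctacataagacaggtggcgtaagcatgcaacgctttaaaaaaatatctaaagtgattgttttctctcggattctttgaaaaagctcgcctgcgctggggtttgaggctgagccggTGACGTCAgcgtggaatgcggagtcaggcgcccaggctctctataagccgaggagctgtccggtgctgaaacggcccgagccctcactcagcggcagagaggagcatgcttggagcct
Chgb: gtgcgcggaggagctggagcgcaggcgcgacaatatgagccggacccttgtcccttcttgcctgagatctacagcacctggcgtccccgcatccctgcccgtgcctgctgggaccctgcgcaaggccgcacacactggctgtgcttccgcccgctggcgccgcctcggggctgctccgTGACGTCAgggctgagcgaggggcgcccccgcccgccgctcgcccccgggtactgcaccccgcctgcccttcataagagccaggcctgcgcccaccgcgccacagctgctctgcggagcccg
Pcsk1: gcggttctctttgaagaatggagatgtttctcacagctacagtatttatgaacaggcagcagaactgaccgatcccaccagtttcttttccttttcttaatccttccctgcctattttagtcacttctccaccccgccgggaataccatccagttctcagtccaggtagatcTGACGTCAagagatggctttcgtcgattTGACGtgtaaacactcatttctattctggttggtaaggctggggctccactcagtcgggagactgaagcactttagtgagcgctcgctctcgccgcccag
Ptprn: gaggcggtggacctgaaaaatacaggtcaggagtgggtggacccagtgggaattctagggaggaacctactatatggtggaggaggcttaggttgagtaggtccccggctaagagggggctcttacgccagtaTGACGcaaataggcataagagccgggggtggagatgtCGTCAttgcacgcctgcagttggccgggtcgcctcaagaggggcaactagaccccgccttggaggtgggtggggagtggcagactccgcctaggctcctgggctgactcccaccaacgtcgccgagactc

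RefSeq windows were matched for 9 of the 10 genes. The palindrome was present for 3 of these 9 genes, in 3 of their 10 windows, against 1.79% of 32851 windows of the same length in the whole table. Those windows were not matched to the members in base composition, and no enrichment was tested. The short motif, which the palindrome contains, was present for 8 of the 9, in 8 of their 10 windows, the exception being Ptprn2, against 20.8% of all windows. Among the windows with the palindrome, Scg2 was higher and Chgb and Pcsk1 were lower in the experiment group.

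Summed over the 10 genes, the vesicle transcripts differed little between the groups. They made up a median of 0.516% of a library's gene counts (range 0.133 to 0.744) in experiment libraries and 0.50% (0.129 to 0.764) in control libraries, so the ranges overlapped almost fully. The pooled sum, in which all libraries of a group are added before scaling, stood at 4719 CPM in the experiment group and 5127 CPM in the control group, a ratio of 0.920 (95% counting interval 0.915 to 0.925). The median library gave the other direction, 5161 CPM in experiment libraries and 5005 CPM in control libraries. Without Scg2 the pooled ratio of the sum was 0.801. The sum varied more from neuron to neuron in the experiment group, with a coefficient of variation of 34.4%, against 25% in the control group.

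The members did not all differ in the same direction. With libraries either pooled or averaged at equal weight, 7 members were lower in the experiment group (Chga, Chgb, Scg5, Ptprn, Ptprn2, Pcsk1 and Cpe) and 1 was higher (Scg2), while Scg3 and Pcsk2 changed side with the weighting. Of the 7, Ptprn2 was all but level at equal weight, with a ratio of 0.998, and its pooled ratio was 1.20 in title set 2. Over the 9113 expressed genes, 45.8% were lower and 40.9% higher by the same rule. All 10 members were among the expressed genes. Their median log2 ratio was -0.16, beside -0.03 for all expressed genes. Ptprn and Scg5 were at least 1.5-fold lower by both weightings, which is 2 of 10 members, beside 11% of expressed genes. None was 1.5-fold higher, beside 7.77% of expressed genes.

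**Figure D1:**
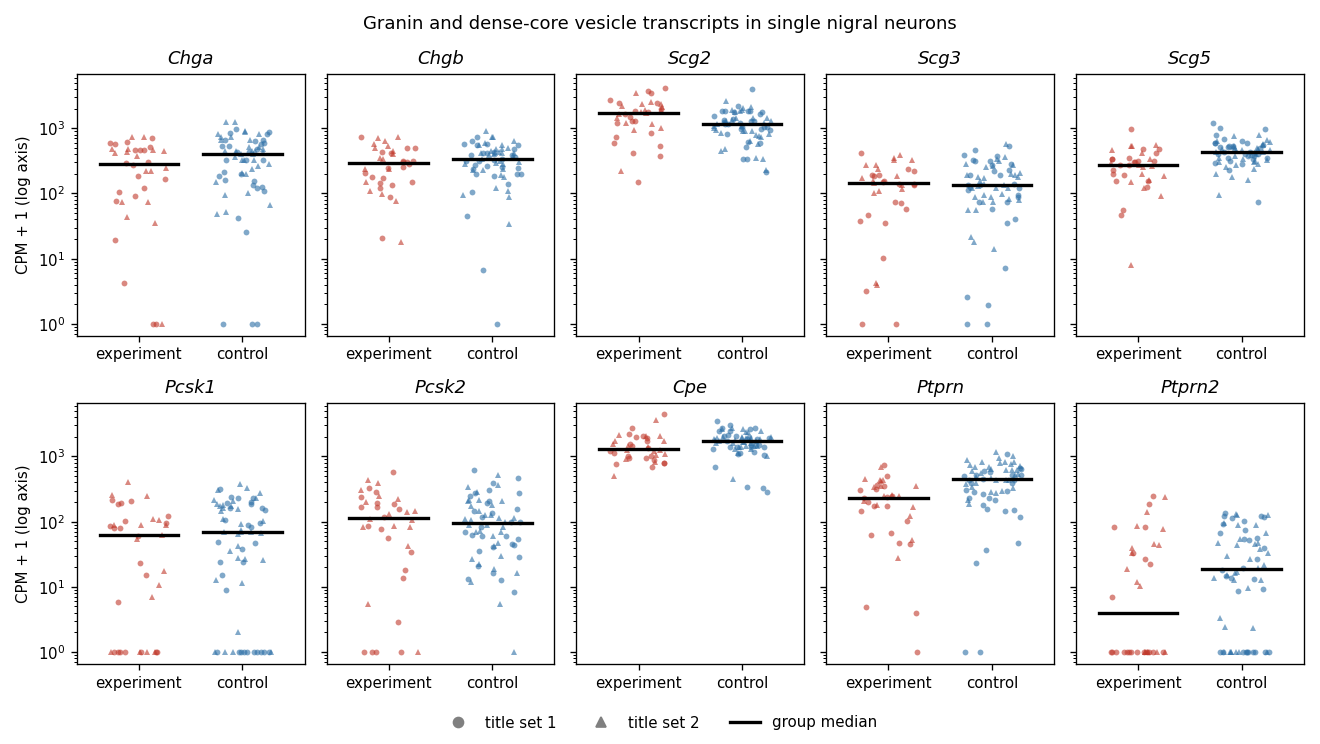
Level of each transcript in every library, as CPM + 1 on a log axis, with experiment libraries left and control libraries right. Each point is a library, its shape the title set, and the bar the group median. Experiment medians lie above control for Scg2 (1684 CPM in experiment, 1159 CPM in control) and below for Ptprn (230 CPM in experiment, 443 CPM in control) and Scg5 (275 CPM in experiment, 427 CPM in control), with wide overlap in each panel.

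Scg2 encodes secretogranin II, the precursor of the peptide secretoneurin, and was the granin with the highest level per kilobase of exon. Its gene lies at chr1:79434669-79440120 on the minus strand (GRCm38, GENCODE, as for the genes below). It ranged from 147 to 4094 CPM with a median of 1684 CPM in experiment libraries, and from 213 to 3952 CPM with a median of 1159 CPM in control libraries. The ranges overlapped, and 28 of 38 experiment libraries lay above the control median. Pooled Scg2 stood at 1581 CPM in the experiment group and 1207 CPM in the control group, a ratio of 1.31 (counting interval 1.30 to 1.32). The equally weighted mean gave 1.42.

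The Scg2 difference was not the same in all parts of the collection. In title set 1 the pooled ratio was 1.00 (0.923 to 1.10 as single libraries were left out) and the equally weighted ratio 1.30, and in set 2 they were 1.61 and 1.55, where Scg2 passed the 1.5-fold line upwards, beside 14.6% of expressed genes. In the third run of titles every one of 12 experiment libraries lay above the control median, with medians of 1831 CPM in experiment libraries and 871 CPM in control libraries. In the fourth run the ratio was 1.33, and 0.993 without experiment library 56. The first run went the other way, with 5 of 7 experiment libraries below the control median and a pooled ratio of 0.700. The experiment library with the lowest Scg2 (147 CPM) was number 27. Without it the ratio was 1.35, and without the 25% of libraries highest in astrocyte markers it was 1.58.

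Chga encodes chromogranin A, the precursor of vasostatin and catestatin, and was lower in the experiment group. Its gene lies at chr12:102554969-102565028 on the plus strand. Its libraries ran from 0 to 743 CPM (median 280) in the experiment group and from 0 to 1237 CPM (median 404) in the control group, with 3 libraries at 0 in each. The groups overlapped, and 22 of 38 experiment libraries lay below the control median. Pooled Chga was 293 CPM in the experiment group and 450 CPM in the control group, a ratio of 0.651 (0.637 to 0.665). With libraries weighted equally the ratio was 0.720, which is why Chga is not counted among the members 1.5-fold apart. The ratio lay below 1 in all 4 runs, from 0.496 to 0.925. The value of 0.925 was that of the first run, where it rested on single libraries: it was 0.304 without experiment library 1 and 1.31 without experiment library 2.

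The other granins stood closer together. Chgb, which encodes chromogranin B, had a median of 291 CPM (17.0 to 726) in experiment libraries and 340 CPM (0 to 892) in control libraries, and a pooled ratio of 0.892. Its ratio was 0.713 in the second run and 0.806 in the fourth. It was 1.05 in the first run, and 0.525 there without experiment library 1, and it was 1.07 in the third, and 0.982 there without experiment library 46. Scg3, whose product binds chromogranin A and anchors granin aggregates to the vesicle membrane, had a median of 142 CPM (0 to 413) in experiment libraries and 132 CPM (0 to 563) in control libraries. Pooled Scg3 was 163 CPM in the experiment group and 161 CPM in the control group, a ratio of 1.01 (0.979 to 1.04) that ran from 0.964 to 1.05 as single libraries were left out, while the title sets gave 0.840 and 1.20. Summed Scg2 counts were 5.40 times summed Chga counts in the experiment group and 2.68 times in the control group.

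Scg5 encodes the small granin-like protein that escorts the convertase Pcsk2 through the secretory pathway and keeps it inactive until it arrives. Its gene lies at chr2:113776362-113829121 on the minus strand. Scg5 spanned 7.01 to 985 CPM (median 275) in experiment libraries and 72.2 to 1196 CPM (median 427) in control libraries. Every library had a count, and 31 of 38 experiment libraries lay below the control median. Pooled Scg5 was 299 CPM in the experiment group and 449 CPM in the control group, a ratio of 0.665 (0.651 to 0.679), and the equally weighted ratio was 0.640. The ratio was 0.627 in set 1 and 0.685 in set 2, and lay between 0.546 and 0.742 in the 4 runs. Scg5 was thus lower in every run, but its pooled value sits just past the 1.5-fold line, and without experiment library 27 it was 0.683, short of that line. Without the 25% of libraries highest in astrocyte markers it was 0.714. In title set 1 Scg5 was the member that passed it, beside 16.6% of expressed genes, and none was 1.5-fold higher there, beside 9.69%.

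Pcsk2 itself encodes a convertase of neuroendocrine cells and, by pooled CPM, was lower like its chaperone in title set 1 but not in set 2. Its median was 113 CPM (0 to 568) in experiment libraries and 93.1 CPM (0 to 609) in control libraries. The pooled ratio was 0.958 (0.927 to 0.990) and the equally weighted ratio 1.08. It was at 0 in 5 of 38 experiment libraries and 1 of 66 control libraries. As single libraries were left out, the pooled ratio ran from 0.875 to 1.04. It was 1.29 in the third run and 0.263 in the first, and 0.130 there without experiment library 1, and the title sets gave 0.671 and 1.27. Summed Scg5 counts were 2.17 times summed Pcsk2 counts in the experiment group and 3.13 times in the control group. Pcsk2 overlaps the antisense gene Pcsk2os1 over 260 exon bases and Pcsk2os2 over 99, and since the strand setting of the counting is not given, reads there cannot be assigned to a strand. These antisense genes stood at 3.14 and 0.175 CPM over all libraries.

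Pcsk1 encodes the convertase that acts earlier in the pathway on many of the same precursors. It was patchy from neuron to neuron, at 0 in 11 of 38 experiment libraries and 14 of 66 control libraries. Its median was 60.7 CPM (highest 404) in experiment libraries and 68.1 CPM (highest 373) in control libraries, so the groups overlapped over nearly their whole range. Pooled Pcsk1 was 84.9 CPM in the experiment group and 118 CPM in the control group, a ratio of 0.719 (0.691 to 0.748). At a common depth of 400000 counts, 24 of 34 experiment libraries (70.6%) and 50 of 60 control libraries (83.3%) had a Pcsk1 count. The pooled ratio was 0.528 in the first run, 0.0861 there without experiment library 1, and 0.420 in the fourth. It was 0.865 in the second run and 0.900 in the third, but 1.02 without control library 15 and 1.06 without control library 52, which turned the direction in those runs. With all libraries kept, the equally weighted ratio was already 1.14 in the second run and 1.02 in the third. It was 0.301 in the first, 0.402 in the fourth and 0.785 over all libraries. Of 38 experiment libraries, 20 lay below the control median.

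Cpe encodes carboxypeptidase E, which removes the basic residues that the convertases leave and has also been proposed as a sorting receptor. Its gene lies at chr8:64592542-64693054 on the minus strand. Cpe was detected in every library, from 500 to 4402 CPM (median 1322) in experiment libraries and from 286 to 3494 CPM (median 1732) in control libraries. The groups overlapped, and 26 of 38 experiment libraries lay below the control median. The pooled ratio was 0.899 (0.890 to 0.907), with 0.957 in set 1 (1.02 without experiment library 2) and 0.887 in set 2. The highest Cpe of all, 4402 CPM, was in experiment library 27, where it supplied 89.1% of the member counts. Cpe is also made by astrocytes, and the part of astrocyte material in this value was not tested. Without that library the ratio was 0.846.

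Ptprn encodes a receptor-type protein of the tyrosine phosphatase family that has no phosphatase activity, spans the vesicle membrane and is a target of autoantibodies in autoimmune diabetes. Its gene lies at chr1:75247027-75264502 on the minus strand. It had the largest difference of the 10 genes by pooled and by equally weighted CPM. Ptprn ranged from 0 to 733 CPM (median 230) in experiment libraries and from 0 to 1182 CPM (median 443) in control libraries, with 1 experiment library and 2 control libraries at 0. The ranges overlapped, yet 34 of 38 experiment libraries lay below the control median. Pooled Ptprn was 256 CPM in the experiment group and 476 CPM in the control group, a ratio of 0.537 (0.525 to 0.548), and the equally weighted ratio was 0.520.

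Ptprn was lower in both title sets. In set 2 the pooled ratio was 0.50, with 281 CPM in experiment libraries and 562 CPM in control libraries, and Ptprn was the member 1.5-fold lower there, beside 17.5% of expressed genes. In set 1 it was 0.747 and the equally weighted ratio 0.608, with 233 CPM in experiment libraries and 312 CPM in control libraries. The set 1 value rested on experiment library 1, which supplied 19.8% of all Ptprn counts of the experiment group. Without it the set 1 level was 159 CPM in experiment libraries and the ratio 0.508. By run, the ratio was 0.356 in the second, 0.492 in the third and 0.534 in the fourth, where it was 0.354 without experiment library 55. The first run gave 1.59, and 0.806 without experiment library 1. Without the 25% of libraries highest in astrocyte markers the ratio over all runs was 0.657. The annotated antisense gene Gm28294 shares 189 exon bases with Ptprn and stood at 0.0524 CPM.

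Ptprn2, which encodes the sister protein of Ptprn in the same membrane, was the lowest of the 10 genes per kilobase and was found in fewer experiment libraries. At 400000 counts per library, 16 of 34 experiment libraries (47.1%) and 46 of 60 control libraries (76.7%) had a count. Before thinning it was 19 of 38 experiment libraries and 49 of 66 control libraries. The summed level did not follow, with a pooled 32.7 CPM in the experiment group and 34.7 CPM in the control group and a ratio of 0.944 (0.882 to 1.01) that ran from 0.806 to 1.04 as single libraries were left out. The experiment group had fewer libraries with a count and a higher top value, 249 CPM against 136 CPM in the control group. Ratios in single runs rested on few libraries. The lowest was 0.392 in the second run, and 0.232 there without experiment library 31. The highest was 2.73 in the first run, where experiment library 2 held nearly all counts and the level without it was 0.273 CPM in experiment libraries and 8.86 CPM in control libraries. Experiment libraries also had fewer detected genes in total, and the part of this in the Ptprn2 share was not tested.

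**Figure D2:**
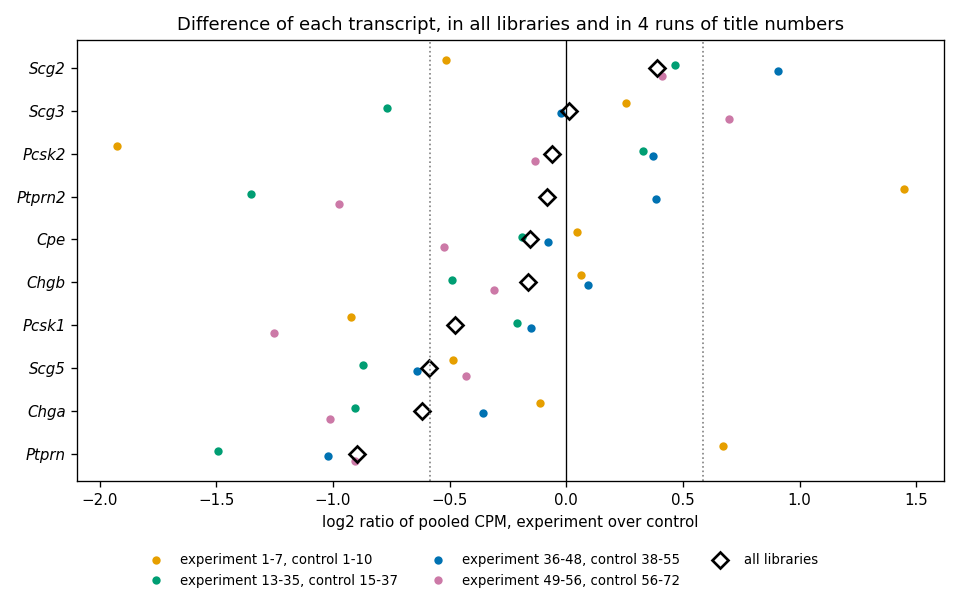
Log2 ratio of pooled CPM, experiment over control, for each transcript in all libraries (diamonds) and within 4 runs of title numbers (dots). Dotted lines mark 1.5-fold. Scg5 and Chga lie left of 0 in all 4 runs, Ptprn in 3 of 4, and Scg2 lies right of 0 in 3 of 4. Without experiment library 2, Chga in the first run lies right of 0 (ratio 1.31), and without experiment library 56, Scg2 in the fourth run lies at 0 (ratio 0.993).

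Levels can be compared between genes per kilobase of annotated exon. Over all libraries the order by median was Cpe, Scg2, Scg5, Chga, Chgb, Ptprn, Scg3, Pcsk2, Pcsk1 and Ptprn2. The top of this order differed between the groups: Scg2 had a median of 670 CPM per kilobase (quartiles 417 and 908) and Cpe 507 (366 and 713) in experiment libraries, while Scg2 had 461 (329 and 608) and Cpe 664 (542 and 773) in control libraries. Per kilobase, Cpe exceeded Scg2 in 17 of 38 experiment libraries and 49 of 66 control libraries. Several neighbours in the order were not separated from library to library. Chga exceeded Chgb in 18 of 38 experiment libraries and 39 of 66 control libraries, Ptprn exceeded Scg3 in 20 experiment and 48 control libraries, and Pcsk2 exceeded Pcsk1 in 20 experiment and 35 control libraries. Scg5 exceeded Chga in 29 of 38 experiment libraries and 55 of 66 control libraries.

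In raw counts, not corrected for transcript length, a like difference is seen within single neurons. Scg2 had the most counts of the 10 transcripts in 20 of 38 experiment libraries and 14 of 66 control libraries, Cpe in 18 experiment and 51 control libraries, and Ptprn in 1 control library. The share of member counts taken by Scg2 had a median of 33.9% (quartiles 28.7 and 43.2) in experiment libraries and 24.9% (17.4 and 27.7) in control libraries. Cpe took 29% (24.5 and 35.9) in experiment libraries and 34.2% (28.8 and 38.5) in control libraries. Summed Scg2 counts over summed Cpe counts gave 0.939 in experiment and 0.898 in control libraries of title set 1. In set 2 they gave 1.10 and 0.609. The median Cpe share was 33.2% in experiment and 34.4% in control libraries of set 1, and 28.3% and 33.4% in set 2. The median Scg2 share was 34.6% and 25.2% in set 1, and 33.7% and 21.2% in set 2. Since these are shares of a sum, a higher share of one gene lowers the others. Summed Scg2 counts were 6.18 times summed Ptprn counts in the experiment group and 2.53 times in the control group, and Scg2 exceeded Ptprn in all 38 experiment libraries and 58 of 66 control libraries. In title set 1 this ratio of sums was 6.07 in experiment and 4.54 in control libraries, and in set 2 it was 6.29 in experiment and 1.96 in control libraries.

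**Figure D3:**
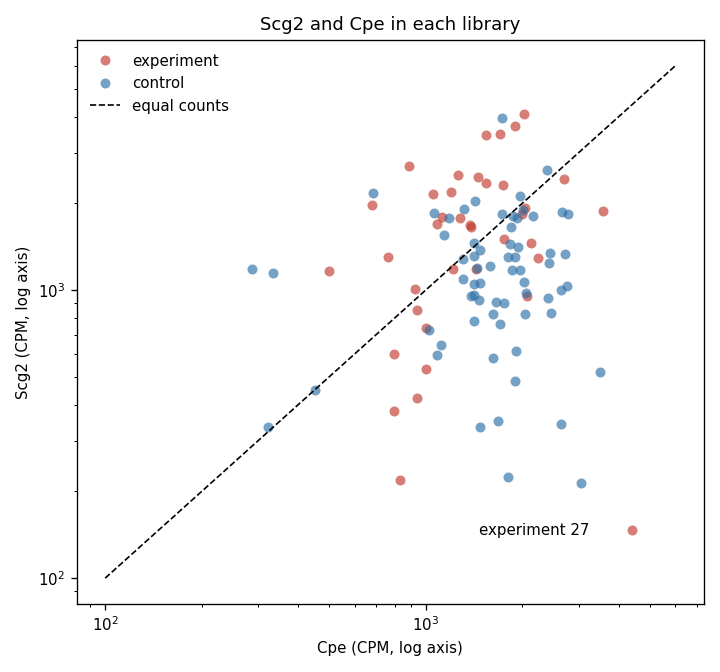
Scg2 against Cpe in each library (CPM, both axes log), with experiment libraries in red and control libraries in blue. The dashed line marks equal counts: 20 of 38 experiment libraries and 14 of 66 control libraries lie above it, and experiment library 27 lies at the lower right with 147 CPM of Scg2 and 4402 CPM of Cpe.

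The 10 transcripts varied together only weakly from neuron to neuron. After the mean of each group and title set was removed from log2(CPM + 1), the 45 pairs had a median Spearman correlation of 0.17 over 104 libraries, from -0.11 to 0.41. Of the 45 pairs, 39 were above 0 and 10 reached 0.3. The highest was Chgb with Scg2, and Chga with Ptprn2 was also at 0.41. Scg5 had -0.11 with Pcsk2 and with Cpe and 0.17 with Chga, but at 400000 counts per library these were 0.03, 0.02 and 0.28. The median over pairs was 0.27 within experiment libraries and 0.08 within control libraries. In title set 1 it was 0.30 in experiment and 0.16 in control libraries, and in set 2 it was 0.07 in experiment and 0.08 in control libraries. Values of 1 library share its depth and its pipette, and sparse genes such as Ptprn2 give weak correlations, so these values are descriptions. At 400000 counts per library the median was 0.17 and the highest pair was Chgb with Ptprn at 0.42.

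**Figure D4:**
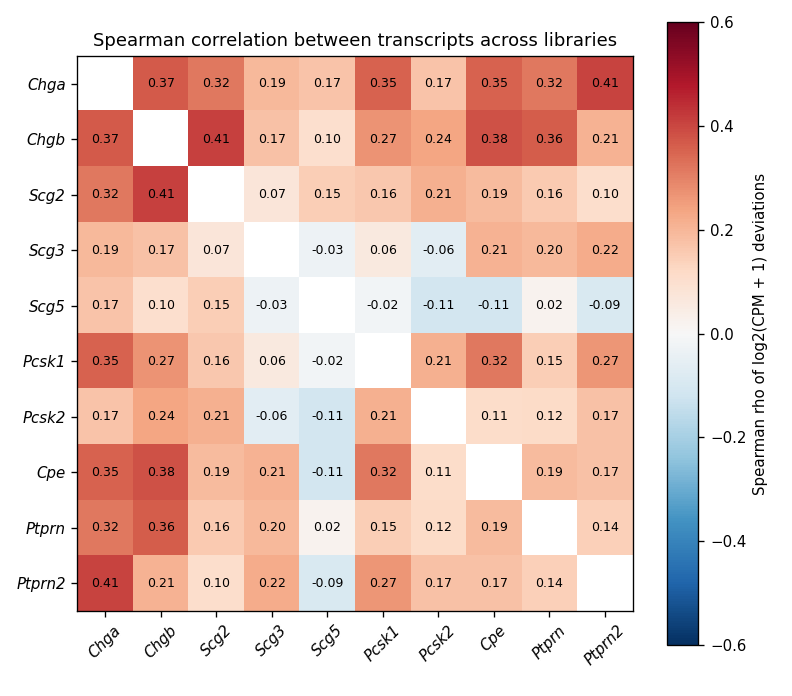
Spearman correlation between each pair of transcripts over 104 libraries, from deviations of log2(CPM + 1) from the mean of group and title set. Colour and number give rho, from -0.11 for Scg5 with Cpe to 0.41 for Chgb with Scg2.

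The mean of the members' standardised deviations was higher in libraries with more of the dopaminergic markers. Its Spearman correlation over 104 libraries was 0.50 with the summed dopaminergic markers, 0.49 with the number of genes detected and 0.09 with depth. It was -0.34 with the GABAergic markers, -0.26 with the oligodendrocyte markers and -0.17 with the astrocyte markers. By member, the correlation with the dopaminergic sum was 0.47 for Chga, 0.42 for Ptprn, 0.42 for Scg2 and 0.14 for Scg5. These markers differed between the groups as given above, and their part in the group differences was not tested.

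Among the expressed genes whose neuron-to-neuron pattern was most like the mean of the members were Syp, which encodes the synaptic vesicle protein synaptophysin (Spearman 0.67), Rtn1 (0.63), L1cam (0.62), Rpn2 (0.59) and Clstn3 (0.59). Across the expressed genes that are not members, the median correlation with this mean was 0.13 and the 99th percentile 0.45. The matches of single members that follow are each the highest over all these genes, and no such benchmark is given for them. The most alike gene to Pcsk1 was Syt3 (0.59), a synaptotagmin. Ptprn was nearest to Chpf (0.58), Cpe to Clu (0.56), Chgb to Ggt7 (0.53) and Ptprn2 to Csmd3 (0.53). Scg5 was nearest to Rtn3 (0.44), Pcsk2 to Hs2st1 (0.43) and Scg3 to Psap (0.41). All of these are correlations over the same 104 libraries and share their depth.

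Scg2 was nearest to Th (0.46), the rate-limiting enzyme of dopamine synthesis. Within groups and sets, libraries with more Th tended to hold more Scg2, while between the groups the genes differed in opposite directions. Pooled Th stood at 5277 CPM in the experiment group and 9726 CPM in the control group, a ratio of 0.543, beside 1.31 for Scg2. Summed Scg2 counts were thus 0.30 of summed Th counts in the experiment group and 0.124 in the control group. In title set 1 this share was 0.291 in experiment and 0.177 in control libraries, and in set 2 it was 0.308 in experiment and 0.103 in control libraries. Slc6a3, the dopamine transporter, Slc18a2, the vesicular monoamine transporter, and Ddc, which makes dopamine from its precursor, had pooled ratios of 0.800, 0.847 and 0.816. In title set 1 these were 1.02, 1.13 and 0.918, and in set 2 they were 0.719, 0.662 and 0.853, so the pooled direction of Slc6a3 and Slc18a2 was not shared by the sets.

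The cargo of the vesicles was mostly at low levels. Of 34 genes for neuropeptides and other cargo, 8 passed the expression filter, and 6 of them were lower and 1 higher whichever way libraries were weighted. Their median log2 ratio was -0.56, beside -0.03 for all expressed genes. That median was -0.94 in title set 1 and -0.08 in set 2. At least 1.5-fold lower were 4 of the 8, beside 11% of all expressed genes, and 1 was higher, beside 7.77%. Of the 4, Adcyap1 passed the expression filter only through the control group, where it was higher, and Cartpt rested on a single control library. The 4 of 8 is therefore not read as a result about the cargo. Nucb2, the precursor of nesfatin, had a median of 0 CPM (highest 145) in experiment libraries and 29.7 CPM (highest 191) in control libraries, with a pooled ratio of 0.354 and a lower value in both sets. Cartpt, the precursor of the CART peptides, was 35.3 CPM in the experiment group and 266 CPM in the control group, a ratio of 0.133. A single control library, number 15, held 85.4% of the control counts of Cartpt. The ratio was 0.853 once the top library on either side was left out.

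Adcyap1, the precursor of PACAP, was 5.85 CPM in the experiment group and 12.8 CPM in the control group, but its ratio was 0.0664 in set 1 and 9.09 in set 2, and it had a count in 4 of 38 experiment libraries and 18 of 66 control libraries. Experiment library 55 held 74.5% of its experiment counts. Over both sets the Adcyap1 ratio was 0.165 once the top library on either side was left out. Sst, the precursor of somatostatin, was higher, at 19.6 CPM in the experiment group and 7.82 CPM in the control group, a ratio of 2.51 with 1.88 and 2.38 in the sets. Sst had a count in 14 of 38 experiment libraries and 28 of 66 control libraries, and the GABAergic markers given above were higher in the same group; their part in this value was not tested. The remaining gene of the 4 lower ones was Cck, named after its values were seen, with 130 CPM in the experiment group and 202 CPM in the control group. Its pooled ratio was 0.644, with 0.491 in set 1 and 0.788 in set 2, where it fell short of 1.5-fold. The Cck ratio was 0.613 once the top library on either side was left out.

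For the machinery around the members, 1.5-fold differences are again read beside 11% lower and 7.77% higher among all expressed genes. Of 12 other peptide-processing enzymes and inhibitors, 6 were expressed, with 3 lower, 2 higher and a median of -0.06 in log2 ratio (0.09 in title set 1, -0.30 in set 2). The 1 gene past the fold, and higher, was Pcsk7, a convertase of the constitutive pathway, at 20.5 CPM in the experiment group and 7.67 CPM in the control group. Experiment library 7 held 63.2% of its experiment counts, and the Pcsk7 ratio was 1.12 once the top library on either side was left out. Among 23 genes of vesicle biogenesis and sorting, 21 were in the table and 19 expressed, 7 lower and 9 higher, and the median log2 ratio was 0.05 (0.11 in title set 1, -0.20 in set 2). Among 21 genes of vesicle transport and release, 16 were expressed, 9 lower and 6 higher, with a median of -0.27. In both of these lists 0 genes passed the 1.5-fold line.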

How the data were processed

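Smart-seq2 cDNA of single neurons became sequencing libraries with a HyperPlus kit, per the labels' protocols. For 104 libraries the authors deposited raw counts of reads by gene symbol. The submitters' processing notes list STAR 2.5.3a, featureCounts 1.5.3 and mm10 with no role for any of them. Which annotation and strand setting were used, and how multiply fitting reads were treated, is not given in the sources used. Library totals exclude the 92 ERCC spike-in rows, and 0 libraries were left out.

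For pooled CPM, a gene's counts from all libraries of a group were added and scaled by the gene counts of that group, with exact Poisson or, for ratios, exact binomial 95% intervals. Reads carry no molecular identifiers, so intervals cover counting error only. Mean library CPM weights libraries equally. Expressed genes had a pooled CPM of 10 or more and were detected in 25% or more of either group's libraries. Genes were called apart at 1.5-fold by both weightings. Shares of libraries with a count used libraries thinned to 400000 counts, leaving 34 experiment and 60 control libraries. Groups came from the sample titles. Title sets follow the letter case of control titles and, for experiment libraries, numbers below 36 against 36 and above. Runs of title numbers (experiment 1 to 7 with control 1 to 10, 13 to 35 with 15 to 37, 36 to 48 with 38 to 55, 49 to 56 with 56 to 72) were chosen after seeing the data, as were the values with single libraries left out, without experiment library 27, without it and control library 5, and without the 25% of libraries highest in astrocyte markers. The members and lists were chosen with earlier results of these data known. Named genes were the 10 members, the 4 dopaminergic markers, up to 4 expressed genes per vesicle list that were 1.5-fold apart by both weightings, ranked by the smaller log2 ratio, the 6 genes most correlated with the mean of the members and the gene most correlated with each member. Results that this rule would name for some genes are not reported here. No pair of the 5356 pairs of libraries held identical counts. Exon lengths and overlaps come from GENCODE on GRCm38, and promoter windows from RefSeq on GRCm38.p6. Python 3.11.15, numpy 2.4.6, pandas 2.3.3 and scipy 1.17.1 were used, and edgeR 4.0.16 (R 4.3.3) gave an alternative scaling. The calculations were tested on simulated data. Alternatives were other weightings, scales, library totals and subsets of libraries.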

Additional observations from a re-analysis of the deposited data

How the results depend on the processing

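The ratio of the summed members was 0.920 as reported and moved by more than its counting interval under most alternatives. It was 0.941 with equal weights, 1.03 with medians, 0.909 on the mean log2(CPM + 1) scale, 0.881 with TMMwsp library sizes, 0.939 with median-of-ratios sizes and 0.937 with totals without mitochondrial and ribosomal protein genes. It was 0.877 in title set 1, 0.988 in set 2, 0.915 without the highest library of each group, 1.01 without the libraries highest in glial markers, 0.913 without libraries under 400000 counts and 0.903 after thinning. Without experiment library 27 and control library 5 it was 0.906, and without the 25% highest in astrocyte markers 1.03. The number of members 1.5-fold lower was 2 as reported, 3 with medians of library CPM, 3 after thinning and 5 on the mean log2 scale, where the median of all expressed genes was itself -0.38. It was 1 with median-of-ratios sizes, with totals without mitochondrial and ribosomal protein genes, in title set 1, in title set 2, without experiment library 27, without that library and control library 5, and without the 25% highest in astrocyte markers. The number 1.5-fold higher was 0 as reported and 1 (Scg2) in title set 2, after leaving out libraries highest in glial markers and without the 25% highest in astrocyte markers. The median log2 ratio of biogenesis and sorting genes was 0.05 as reported, -0.37 on the mean log2 scale and -0.20 in title set 2. The Ptprn ratio was 1.59 in the first run of title numbers, which turned its direction, 2.04 there without experiment library 2 and 0.806 there without experiment library 1. Over 12 of these settings, the runs and the subsets chosen after seeing the data aside, Chga, Chgb, Scg5, Ptprn, Pcsk1 and Cpe stayed below 1 and Scg2 above 1, from 1.00 to 1.61, while Scg3, Ptprn2 and Pcsk2 fell on both sides. With no expression filter 22.9% of genes were 1.5-fold lower and 26.5% higher. The cause of these shifts was not tested. No paired analysis was possible because no test between groups was made and the title numbers tie no experiment library to a control library. Reads without molecular identifiers and Ptprn2, Pcsk1 and Pcsk2 at 0 in some libraries limit the values of single neurons.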

Other observations

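The libraries lowest in dopaminergic markers held the members in different proportions. Experiment library 27 had 138 CPM of Th, 10819 CPM of astrocyte markers and 7129 CPM of oligodendrocyte markers. Its members summed to 4943 CPM, of which Cpe gave 4402 CPM and Scg2 147 CPM, and Chga and Ptprn2 had no count. Control library 5 had 1128 CPM of Th, 3470 CPM of oligodendrocyte markers and 908 CPM of GABAergic markers. Its members summed to 1293 CPM, the lowest of all libraries, with 323 CPM of Cpe and 335 CPM of Scg2.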
